A study of Mus musculus with 6 samples.

Results

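The 10 genes described here belong to the interleukin-1 (IL-1) family and were read in inflamed and in healthy mouse spinal cord: 2 ligands, a soluble antagonist, a signalling receptor with its decoy and accessory chain, the IL-18 cytokine with its binding protein and receptor, and IL-36γ. The members were fixed by name, as *Il1a*, *Il1b*, *Il1rn*, *Il1r1*, *Il1r2*, *Il1rap*, *Il18*, *Il18bp*, *Il18r1* and *Il1f9*. All 10 were found among the 19449 genes of the single-cell table and among the 55351 genes of the bulk table. The list is not tied to a threshold on any value.

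The single-cell libraries came from an adoptive-transfer model of multiple sclerosis, experimental autoimmune encephalomyelitis (EAE), in which myelin-reactive CD4+ T cells of CD45.1 congenic donors, grown with IL-23 toward a Th17 type, were injected into naive C57BL/6 recipients. Young recipients were 8 to 12 weeks old and middle-aged recipients 40 to 44 weeks old, with T cells of the same kind given to both. CD45+ spinal cord cells were sorted on day 6 and on day 10 after transfer, with 4 cords pooled into each of 4 libraries, so that every age and day was 1 library. The bulk libraries were microglia of naive, untreated young and middle-aged mice, with 1 library per age. A pool cannot show the spread between mice, so no test between groups was possible and no p-value is given. Intervals in square brackets are 95% intervals and cover counting error only.

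IL-1α and IL-1β bind the same receptor, IL1R1, which signals only with the accessory chain IL1RAP. The antagonist IL-1RA, made from *Il1rn*, occupies IL1R1 without signalling, and IL1R2 binds IL-1 but lacks a signalling domain, so it acts as a decoy. IL-18 signals through IL18R1 with the chain IL18RAP and is neutralised by the IL-18 binding protein. In EAE, IL-1 from myeloid cells is known to act on T cells that make IL-17 and GM-CSF. Both IL-1β and IL-18 are made as precursors that need cleavage to be active, for example by inflammasome caspases, which transcript counts do not show.

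The genes lie in a few blocks of the GRCm38 genome (GENCODE annotation). *Il1r2* (chr1:40074079-40125231, plus strand), *Il1r1* (chr1:40225080-40317257, plus) and *Il18r1* (chr1:40465552-40500854, plus) are neighbours on chromosome 1. On chromosome 2 lie *Il1f9* (chr2:24186476-24193568, plus), *Il1rn* (chr2:24336853-24351494, plus), *Il1a* (chr2:129299610-129309972, minus) and *Il1b* (chr2:129364570-129371139, minus). The other members are *Il18bp* (chr7:102014885-102018690, minus), *Il18* (chr9:50554827-50581840, plus) and *Il1rap* (chr16:26581704-26730117, plus).

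The promoters of 4 genes are shown because the results turn on how ligands and inhibitors differed between days and ages. Each is 300 bases, from 250 before to 50 after a RefSeq transcription start of GRCm38.p6, 5′ to 3′ on the gene's strand, and capitals mark a match to a searched motif. The stretches are chr2:129309923-129310222 (*Il1a*), chr2:129371090-129371389 (*Il1b*), chr2:24336610-24336909 (the first of 3 listed starts of *Il1rn*) and chr7:102018183-102018482 (*Il18bp*).
Il1a: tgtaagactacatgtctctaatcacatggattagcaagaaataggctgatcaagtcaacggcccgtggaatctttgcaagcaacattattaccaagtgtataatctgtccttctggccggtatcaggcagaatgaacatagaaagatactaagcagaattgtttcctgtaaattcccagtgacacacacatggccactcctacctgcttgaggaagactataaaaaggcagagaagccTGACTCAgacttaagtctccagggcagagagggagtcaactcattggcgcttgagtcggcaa
Il1b: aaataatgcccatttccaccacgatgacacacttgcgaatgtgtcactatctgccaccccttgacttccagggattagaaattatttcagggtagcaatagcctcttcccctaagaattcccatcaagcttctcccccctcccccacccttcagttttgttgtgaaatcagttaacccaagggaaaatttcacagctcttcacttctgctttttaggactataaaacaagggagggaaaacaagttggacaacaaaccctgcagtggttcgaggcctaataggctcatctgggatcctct
Il1rn: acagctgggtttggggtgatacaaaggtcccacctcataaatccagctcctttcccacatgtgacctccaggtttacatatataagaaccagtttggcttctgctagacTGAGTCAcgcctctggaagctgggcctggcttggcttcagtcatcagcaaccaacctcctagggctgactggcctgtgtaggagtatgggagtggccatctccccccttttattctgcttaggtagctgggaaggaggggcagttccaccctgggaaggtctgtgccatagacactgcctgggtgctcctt
Il18bp: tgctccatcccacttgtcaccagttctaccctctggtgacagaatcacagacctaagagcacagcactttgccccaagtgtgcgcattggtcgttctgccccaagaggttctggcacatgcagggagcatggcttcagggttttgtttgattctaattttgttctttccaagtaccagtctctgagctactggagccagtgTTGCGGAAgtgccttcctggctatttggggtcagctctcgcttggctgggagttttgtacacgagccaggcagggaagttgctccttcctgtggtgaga
An AP-1 motif (TGANTCA, either strand) stood 12 bases before the *Il1a* start and 141 bases before the *Il1rn* start, and a C/EBP motif (TTGCNNAA, either strand) 49 bases before the *Il18bp* start. The *Il1b* stretch held none of the motifs searched. Of the 15 listed starts, 2 held AP-1, 2 held C/EBP and 1 held an NF-κB motif, against 7.81%, 10.8% and 4.51% of all 32851 RefSeq promoters of that length. These matches describe the letters only.

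The 4 single-cell libraries held 8315 to 10026 cells and 57337626 to 69859331 unique molecular identifiers (UMIs, each counting one captured molecule), and 154 of 37903 cell barcodes occurred in 2 libraries. Cells were grouped by the deposited cluster numbers, 16 in all, and named from fixed markers: clusters 0, 3 and 6 neutrophil-like, 1 and 5 monocyte/macrophage-like, 2 T cell-like, 4 B cell-like, 7 dendritic-like, 8 and 10 microglia-like and 9 NK-like. None of the fixed neutrophil markers was among the 10 leading genes of cluster 0, which included *Il1f9*, although all 12 were detected there. Cluster 8 also carried neutrophil transcripts. The summed level of *S100a8* and *S100a9* was 3385 to 9500 UMIs per 1000000 UMIs of the cluster and library (CPM) in cluster 8, 35001 to 45374 CPM in cluster 0, and 75.5 to 578 CPM in T cell-like and B cell-like cells. Since clusters were built from these cells and genes, levels by cluster are a description. Values of 4 are given in the order young day 6, middle-aged day 6, young day 10, middle-aged day 10.

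*Il1b*, the main secreted IL-1, was the most abundant member and was highest in neutrophil-like cells. Its level in cluster 3 was 25351, 22524, 6239 and 15280 CPM, and in cluster 0 it was 14322, 11958, 11374 and 11355 CPM. Every library of cluster 0 lay above every library of the monocyte/macrophage-like cluster 1, at 4409, 3640, 1584 and 1804 CPM, and of cluster 5, at 4589, 4521, 2109 and 2613 CPM. Clusters 0 and 3 could not be ordered, since their ranges overlapped.

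Neutrophil-like cells held 35.2%, 49.6%, 54.0% and 50.9% of all *Il1b* UMIs and monocyte/macrophage-like cells 56.5%, 45.1%, 33.3% and 36.8%. Neutrophil-like cells made up 21.5%, 41.7%, 28.0% and 24.5% of the cells. Their part of *Il1b* was highest on young day 10, although they were a smaller share of cells then than on middle-aged day 6. Dendritic-like cells stayed within a narrow range of 1534 to 1814 CPM. Microglia-like cluster 10 was at 1126, 1314, 1120 and 1155 CPM, below every library of cluster 7. Cluster 8, at 2232, 2433, 674 and 694 CPM, dropped to 345, 872, 258 and 248 CPM once cells with markers of another lineage were left out, and the part of neutrophil RNA in it was not tested further.

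T cell-like cells held 49.1, 63.8, 42.1 and 35.3 CPM of *Il1b* and B cell-like cells 53.7, 159, 63.6 and 34.0 CPM, all of them below every library of the myeloid clusters named above. NK-like values of 122, 537, 214 and 746 CPM rested on few cells, because the 10 cells with most UMIs held 59.3% to 95.6% of them.

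**Figure D1:**
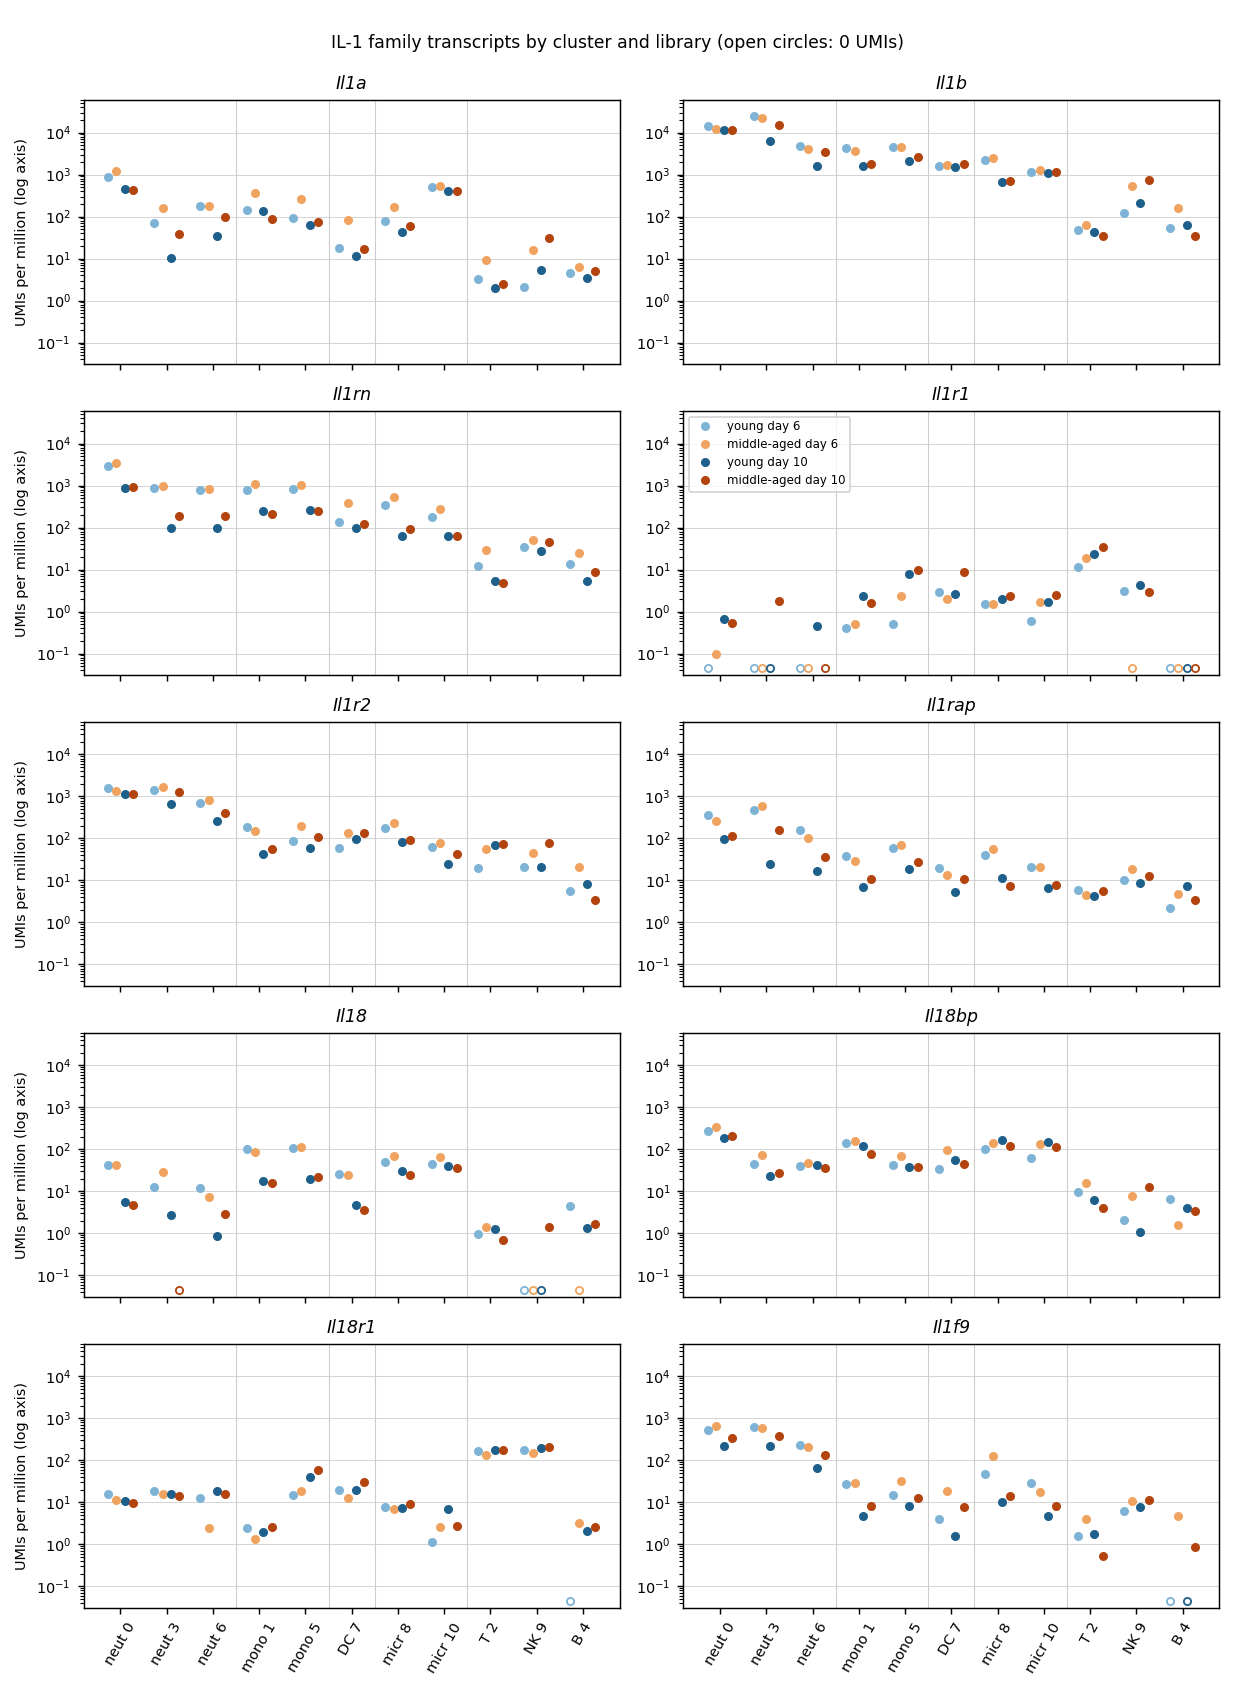
Level of each of the 10 members (CPM of a cluster and library, log axis) in 11 named clusters, with 1 point per library coloured by age and day and open circles for 0 UMIs. *Il1b*, *Il1rn*, *Il1r2*, *Il1rap*, *Il18bp* and *Il1f9* peak in neutrophil-like clusters and *Il1r1* and *Il18r1* in lymphocytes. *Il18* peaks in monocyte/macrophage-like clusters on day 6 and in microglia-like cluster 10 on day 10.

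*Il1a*, the ligand that is active without cleavage and is also kept in the nucleus, had a different distribution. It was at 857, 1213, 446 and 435 CPM in cluster 0 and at 502, 522, 407 and 407 CPM in microglia-like cluster 10. These ranges overlapped, whereas cluster 10 lay above cluster 1, at 145, 368, 135 and 89.6 CPM, in every library. Cluster 3, one of the highest for *Il1b*, held 70.7, 157, 10.2 and 37.9 CPM of *Il1a*.

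Set against each other, the ligands were in different proportions from cluster to cluster. Microglia-like cluster 10 held 0.446, 0.397, 0.364 and 0.352 *Il1a* UMIs per *Il1b* UMI, while cluster 0 held 0.0598, 0.101, 0.0392 and 0.0383 and cluster 3 between 0.00163 and 0.00696. The other microglia-like cluster, 8, held 0.0351, 0.0701, 0.0628 and 0.0842, within the range of cluster 0 or close to it. No library of the clusters named above for *Il1a* reached the lowest value of cluster 10. UMIs are counted at one end of a transcript, so gene length does not enter these ratios.

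*Il1rn*, the receptor antagonist, was highest in cluster 0 at 2935, 3496, 867 and 925 CPM. It reached 779, 1094, 250 and 208 CPM in cluster 1 and 840, 1021, 268 and 244 CPM in cluster 5. Both day 6 libraries lay above both day 10 libraries in each of these 3 clusters.

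*Il1f9*, which encodes the epithelial and myeloid cytokine IL-36γ, was a neutrophil transcript here, with 74.4% to 83.2% of its UMIs in neutrophil-like cells. Its level was 536, 652, 223 and 334 CPM in cluster 0 and 611, 573, 225 and 373 CPM in cluster 3. In T cell-like cells it was at 0.518 to 3.93 CPM.

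*Il1r1*, the signalling receptor, was mainly in T cell-like cells. T cell-like cells held 80, 129, 331 and 542 of its UMIs, or 11.3, 18.8, 23.9 and 35.1 CPM, and 62.5% to 73.2% of all *Il1r1* UMIs of a library. Neutrophil-like cluster 0 was at 0, 0.0972, 0.653 and 0.522 CPM, and B cell-like cells had 0 UMIs in 4 of 4 libraries. In cells thinned to 2000 UMIs, an *Il1r1* UMI was found in 1.73%, 2.1%, 4.47% and 5.64% of T cell-like cells and in 0 of 274, 0 of 162, 0 of 422 and 0 of 314 B cell-like cells, whose exact intervals allow up to 1.34%, 2.25%, 0.870% and 1.17% of cells with a UMI. The intervals were apart on day 10 and overlapped on day 6. Unnamed cluster 13, in which T cell genes and neutrophil genes lead together, was at 10.8 to 21.6 CPM in its 3 libraries of 50 or more cells and overlapped the T cell-like range, as did unnamed cluster 11, led by genes of dividing cells and granulocyte precursors, at 4.86, 7.19, 14.1 and 18.7 CPM.

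Cluster 5 held 0.513, 2.36, 7.63 and 9.53 CPM of *Il1r1*, rising alongside its summed T cell marker level of 379, 524, 1140 and 1622 CPM. Without cells that carried markers of another lineage, *Il1r1* in cluster 5 was at 0 to 1.73 CPM.

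*Il1r2*, the decoy, followed *Il1b* into the neutrophil-like clusters, at 1565, 1334, 1138 and 1134 CPM in cluster 0 and 1424, 1688, 646 and 1256 CPM in cluster 3. Monocyte/macrophage-like cluster 1 was at 192, 154.5, 43.8 and 55.6 CPM, below every library of both. In microglia-like cluster 10 it was at 61.1, 79.7, 24.8 and 42.3 CPM, with 56.3% to 70.1% of its UMIs in 10 cells.

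T cell-like cells also held the decoy, at 19.6, 54.8, 71.4 and 75.1 CPM, against 5.60, 20.9, 8.20 and 3.40 CPM in B cell-like cells. Set beside *Il1b*, there were 0.399, 0.858, 1.70 and 2.12 *Il1r2* UMIs per *Il1b* UMI in T cell-like cells, 0.104, 0.131, 0.129 and 0.100 in B cell-like cells and 0.109, 0.112, 0.100 and 0.0999 in cluster 0. The B cell-like ratio lay near that of neutrophil-like cells, and the T cell-like ratio was above both in every library.

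Leaving out T cell-like cells with markers of another lineage gave 19.7, 60.9, 63.3 and 71.3 CPM of *Il1r2*. With each cell thinned to 2000 UMIs, *Il1r2* was found in 2.98%, 5.94%, 8.68% and 9.33% of T cell-like and in 0.730%, 4.32%, 1.42% and 0.637% of B cell-like cells, while the shares as deposited were 7.42%, 14.2%, 22.5% and 20.5% and 1.69%, 4.89%, 2.03% and 1.18%. Median depths were 4715 to 6225 UMIs in T cell-like and 2402 to 2997 in B cell-like cells. The thinned T cell-like share was the higher in every library. Its interval overlapped that of B cell-like cells in both day 6 libraries, at 2.12% to 4.07% against 0.0885% to 2.61% in young and 4.61% to 7.50% against 1.75% to 8.70% in middle-aged mice, and was apart from it in both day 10 libraries. In T cell-like cells there were 1.74, 2.91, 2.99 and 2.14 decoy UMIs per *Il1r1* UMI.

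**Figure D2:**
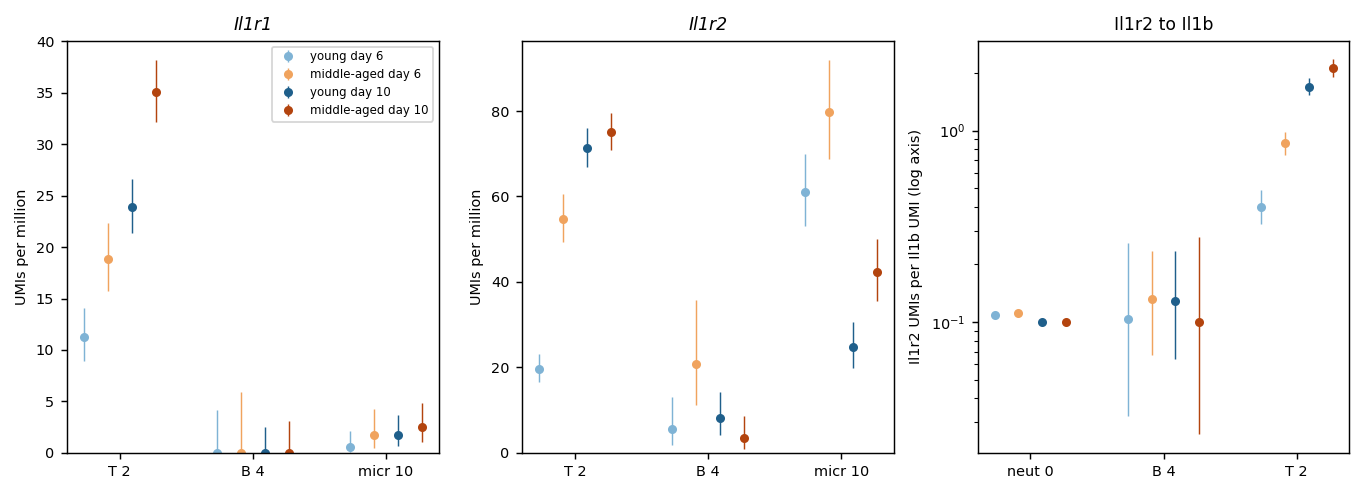
*Il1r1* and *Il1r2* (CPM, linear axis) in T cell-like, B cell-like and microglia-like cells, and *Il1r2* UMIs per *Il1b* UMI (log axis) in neutrophil-like cluster 0, B cell-like and T cell-like cells. Points are libraries and bars 95% counting intervals. *Il1r1* sits at 11.3 to 35.1 in T cell-like cells and at 0 in B cell-like cells, and the T cell-like *Il1r2* ratio of 0.399 to 2.12 lies above the other clusters.

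*Il1rap*, the accessory chain shared by the IL-1, IL-33 and IL-36 receptors, was mainly in neutrophil-like cells, although these held almost no *Il1r1*. It was at 357, 257, 96.5 and 113 CPM in cluster 0 and 466, 606, 24.1 and 160 CPM in cluster 3. T cell-like cells, where *Il1r1* was found, held 4.18 to 5.79 CPM.

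*Il18*, which unlike *Il1b* is known as a constitutively made precursor in macrophages, was a monocyte/macrophage and microglia transcript. It was at 103, 85.9, 18.0 and 15.9 CPM in cluster 1, 106, 115, 20.1 and 21.9 CPM in cluster 5 and 45.4, 66.3, 41.3 and 35.2 CPM in microglia-like cluster 10. Day 6 lay far above day 10 in clusters 1 and 5, and on day 10 the microglia-like cluster was above both. T cell-like and B cell-like cells were at 0 to 4.48 CPM.

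*Il18bp*, which makes the soluble IL-18 inhibitor, was in the same myeloid cells and also in neutrophil-like cells. Cluster 0 was at 273, 347, 189 and 211 CPM, cluster 1 at 142, 160, 121 and 79.8 CPM, cluster 8 at 101, 139, 170 and 120 CPM and cluster 10 at 63.1, 137, 149 and 113 CPM. Its inhibitor transcript outnumbered *Il18* in cluster 0 in every library, with 0.159, 0.124, 0.0300 and 0.0231 *Il18* UMIs per *Il18bp* UMI.

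*Il18r1*, the IL-18 receptor chain, was shared by T cell-like cells, at 170, 136, 172 and 179 CPM, and NK-like cells, at 178, 148, 201 and 204 CPM, whose ranges overlapped. Microglia-like cluster 10, read as the background, was at 1.16 to 7.11 CPM and B cell-like cells at 0 to 3.21 CPM. In cells thinned to 2000 UMIs, *Il18r1* was found in 25.1%, 22.3%, 28.1% and 29.6% of T cell-like cells (44.8%, 43.9%, 58.3% and 55.9% as deposited) and in 0.243% to 0.570% of cluster 10 cells, whose median depth was 6931 to 10000 UMIs.

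The partner chain *Il18rap* did not keep one proportion to *Il18r1*. There were 0.519, 0.660, 0.589 and 0.545 *Il18rap* UMIs per *Il18r1* UMI in T cell-like cells, 0.860 to 1.61 in NK-like cells, and 11.1 to 19.3 in neutrophil-like cluster 0, so that neutrophil-like cells held mainly the partner chain.

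The comparison of days asked how these transcripts differed between day 6 and day 10 after transfer in each age. A member counted as different when it was 2-fold or more apart and had 100 or more UMIs in the 2 libraries, and 8 clusters (0, 1, 2, 3, 5, 7, 8 and 10) were read. In young mice 28 of 59 member and cluster pairs were 2-fold lower on day 10, against 6.88% of all 50214 gene and cluster pairs, and 4 were 2-fold higher, against 8.5%. In middle-aged mice 33 of 59 were lower, against 5.51% of 48759, and 2 were higher, against 9.66%. The 2 day comparisons share no library, while each shares its libraries with the age comparisons below. In cluster 0 the median log2 ratio over all genes was itself 0.58 in young and 0.68 in middle-aged mice, and in cluster 1 it was 0.08 and 0.23, so the falls below are on a scale that the typical neutrophil-like gene moved against. TMM scaling brought these medians to -0.08 and -0.09 in cluster 0.

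The antagonist *Il1rn* was lower on day 10 in all 8 clusters read in both ages. It was 2-fold lower in 7 of 8 clusters in young mice, with log2 ratios from -3.14 (cluster 3) to -0.52 (cluster 7), and in 8 of 8 in middle-aged mice, from -2.57 to -1.62. In cluster 0 its log2 ratio was -1.76 [-1.81 to -1.71] in young and -1.92 [-1.96 to -1.88] in middle-aged mice.

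*Il1b* was lower on day 10 in 7 of 8 clusters in each age, counting intervals below 0, and by less than *Il1rn* in each of the 8. Its log2 ratio in cluster 0 was -0.33 in young and -0.07 in middle-aged mice, or -0.99 and -0.84 after scaling by the trimmed mean of M-values (TMM), which centres the typical gene, in cluster 1 it was -1.48 and -1.01, and in microglia-like cluster 10 it was -0.01 and -0.19. In cluster 3 it was -2.02 in young and -0.56 in middle-aged mice.

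*Il1b* UMIs per *Il1rn* UMI were therefore higher on day 10 in 7 of 7 myeloid clusters in each age. In cluster 0 the ratio was 4.88, 3.42, 13.1 and 12.3, in cluster 3 29.1, 22.8, 63.2 and 80.8, and in cluster 10 6.41, 4.78, 17.4 and 18.6. Both day 10 libraries were above both day 6 libraries in these clusters. Over the 7 clusters the fold of day 10 over day 6 ran from 1.12 (cluster 1) to 2.72 in young and from 1.68 to 3.89 in middle-aged mice. In cluster 1, at 5.66, 3.33, 6.34 and 8.68, the young libraries were close together.

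*Il18* UMIs per *Il18bp* UMI went the other way. The ratio was lower on day 10 in 7 of 7 clusters in young mice, at 0.114 to 0.420 of the day 6 value, and in 6 of 6 in middle-aged mice, at 0.186 to 0.644. Cluster 3 had 0 *Il18* UMIs on middle-aged day 10 and gave no ratio there. In cluster 1 there were 0.727, 0.537, 0.150 and 0.199 *Il18* UMIs per *Il18bp* UMI.

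**Figure D3:**
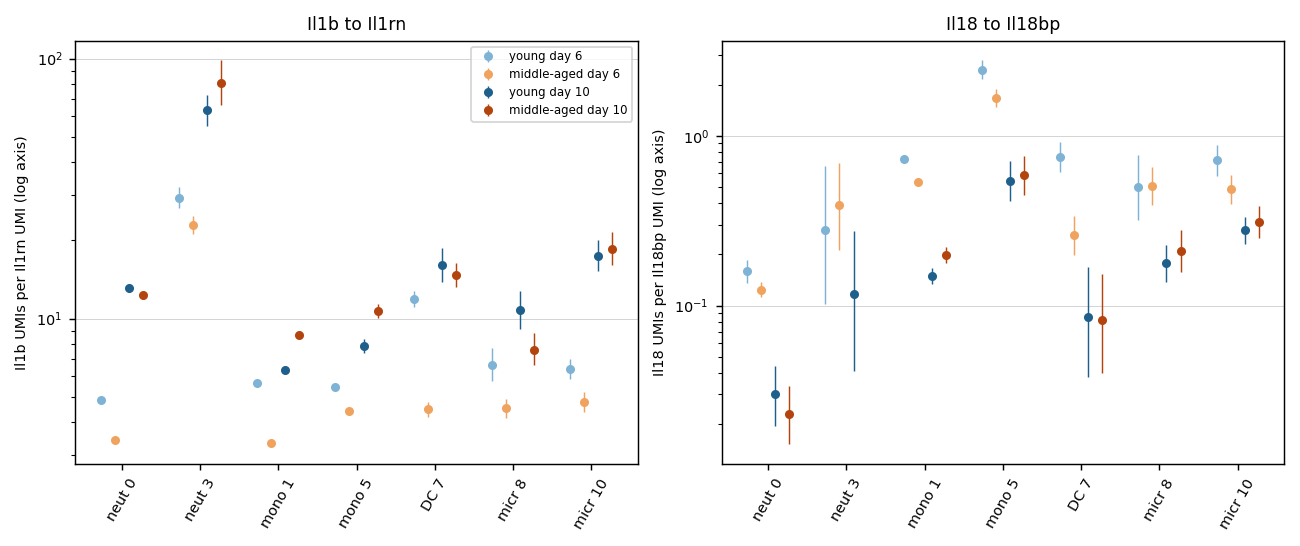
*Il1b* UMIs per *Il1rn* UMI and *Il18* UMIs per *Il18bp* UMI (log axes) in 7 myeloid clusters, with 1 point per library and 95% counting intervals. The first ratio is higher on day 10 in each cluster and age, from 4.88 to 13.1 in young cluster 0, and the second is lower, from 0.727 to 0.150 in young cluster 1.

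By cluster, 4 of 9 members read in cluster 0 were 2-fold lower on young day 10 (*Il18*, *Il1rap*, *Il1rn* and *Il1f9*), against 6.02% of its genes, and 4 of 9 on middle-aged day 10 (*Il18*, *Il1rn*, *Il1a* and *Il1rap*), against 5.17%. With TMM scaling these became 8 of 9, against 17.1% of genes, and 7 of 9, against 17.5%. In cluster 1 these were 6 of 9, against 7.73%, and 8 of 8, against 6.03%. *Il18* had log2 ratios of -2.52 [-2.67 to -2.36] and -2.43 [-2.59 to -2.28] in cluster 1, and -0.14 [-0.47 to 0.20] and -0.91 [-1.27 to -0.56] in microglia-like cluster 10. *Il1rap* was 2-fold lower in 5 of 5 clusters in young and in 4 of 5 in middle-aged mice, and *Il1f9* in 4 of 5 and in 3 of 5. *Il18bp* did not move one way, with log2 ratios from -0.64 to 1.23 in young and from -2.02 to -0.22 in middle-aged mice.

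In T cell-like cells both IL-1 receptor genes were higher on day 10. Of 6 members read there in young mice, *Il1r1* and *Il1r2* were 2-fold higher on day 10 and *Il1rn* 2-fold lower, against 6.32% of genes 2-fold apart in either direction. The log2 ratio of *Il1r1* was 1.08 [0.72 to 1.45] and that of *Il1r2* 1.86 [1.60 to 2.13]. In middle-aged mice 3 of 8 members were 2-fold lower (*Il1rn*, *Il18bp* and *Il1a*, all at 28.8 CPM or less), against 4.98% in either direction, and *Il1r1* and *Il1r2* had log2 ratios of 0.90 [0.62 to 1.19] and 0.45 [0.29 to 0.63]. *Il18r1* had log2 ratios of 0.01 and 0.40. In cluster 5, *Il18r1* was 2-fold higher in both ages, at 14.9, 18.8, 40.9 and 58.9 CPM, beside the T cell marker levels given above, and was at 0.384 to 1.73 CPM without cells that carried markers of another lineage.

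Of 39 other genes of the family and its pathway, 34 were in the single-cell table. None of 26 read in T cell-like cells of young mice, and none of 27 in middle-aged mice, was 2-fold apart between days. The shares of all genes there were 6.32% and 4.98%, so few or none would be 2-fold apart at that rate. In cluster 1, 6 of 30 were 2-fold lower in young mice, against 7.73% of genes, and 7 of 30 in middle-aged mice, against 6.03%. In each age 1 of 30 was 2-fold higher, against 865 of 9675 genes in young and 1176 of 9815 in middle-aged mice. *Casp4*, the inflammatory caspase of the noncanonical inflammasome, was 2-fold lower on day 10 in 7 of 8 clusters in young and 6 of 8 in middle-aged mice and had log2 ratios of -1.85 and -1.65 in cluster 1. *Il18rap*, the second chain of the IL-18 receptor, was at -2.07 and -1.71 there. *Il1rl2*, the IL-36 receptor, was higher, at 1.87 and 1.24, from 4.04 and 5.79 CPM to 14.7 and 13.7 CPM. The summed microglia marker level of cluster 1 was 252, 259, 589 and 588 CPM, and its part in the *Il1rl2* values was not tested.

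The comparison of ages asked whether middle-aged hosts differed in these transcripts when they had received the same kind of T cells. On day 6, 14 of 62 member and cluster pairs were 2-fold higher and 0 of 62 were 2-fold lower in middle-aged mice, against 3.12% of 47048 gene and cluster pairs in either direction. On day 10, 2 of 54 were higher and 0 lower, against 1.25% of 50582.

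*Il1a* carried much of the day 6 difference. It was 2-fold higher in 5 of 7 clusters, with log2 ratios of 1.34 [1.29 to 1.40] in cluster 1, 1.5 [1.37 to 1.62] in cluster 5, 1.15 [0.60 to 1.72] in cluster 3, 1.12 [0.68 to 1.59] in cluster 8 and 2.14 [1.82 to 2.47] in dendritic-like cluster 7. In microglia-like cluster 10 it was 0.05 [-0.05 to 0.16]. In cluster 8 the summed level of *S100a8* and *S100a9* was 6268 and 9500 CPM in these libraries, and its part in the *Il1a* value was not tested. Without cells that carried markers of another lineage, *Il1a* was 2-fold higher in 4 of 7 clusters. On day 10 none of 5 clusters was 2-fold apart, and cluster 1 was at -0.59 [-0.67 to -0.51]. Middle-aged day 6 was the highest library for *Il1a* in clusters 0, 1, 3, 5, 7, 8 and 10, in cluster 10 by a log2 ratio of only 0.05 over young day 6.

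*Il1rn* was higher in middle-aged mice on day 6 in 8 of 8 clusters, with log2 ratios from 0.18 to 1.47 and intervals above 0. Past 2-fold were cluster 7, from 137 to 380 CPM, and T cell-like cells, from 11.9 to 28.8 CPM. In T cell-like cells the summed level of *S100a8* and *S100a9* was 75.5 and 216 CPM in these libraries, and its part in the *Il1rn* value was not tested.

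*Il1b* had log2 ratios between ages from -0.28 to 0.38 over 8 clusters on day 6. Without cells that carried markers of another lineage, cluster 8 moved from 0.12 to 1.34, at 345 and 872 CPM. Middle-aged day 6 held fewer *Il1b* UMIs per *Il1rn* UMI than young day 6 in 7 of 7 myeloid clusters, at 0.377 to 0.811 of the young value, and in 6 of 7 without those cells, where the ratio in cluster 8 was 2.22 for young and 2.47 for middle-aged day 6. On day 10 the ratio was higher in 4 and lower in 3 clusters, at 0.707 to 1.37 of the young value.

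The decoy *Il1r2* was 2-fold higher in middle-aged mice on day 6 in T cell-like cells, cluster 5 and cluster 7, with log2 ratios of 1.48 [1.20 to 1.77], 1.24 [1.11 to 1.38] and 1.21 [1.00 to 1.41]. In the same T cell-like libraries *S100a8* and *S100a9* went from 75.5 to 216 CPM, and *Il1r2* in B cell-like cells from 5.60 to 20.9 CPM. Without cells that carried markers of another lineage the T cell-like log2 ratio was 1.63. In cluster 0, one of the highest for *Il1r2*, it was -0.23. On day 10 it was 0.07 [-0.05 to 0.20] in T cell-like cells. *Il1r1* in T cell-like cells had log2 ratios of 0.73 [0.32 to 1.16] on day 6 and 0.55 [0.35 to 0.76] on day 10, and *Il18r1* of -0.33 and 0.06.

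*Il18bp* was 2-fold higher in cluster 7 (log2 1.51, from 33.9 to 96.4 CPM) and cluster 10 (1.12, from 63.1 to 137 CPM) on day 6, and 7 of 7 clusters had intervals above 0. On day 10, 4 of 7 had intervals below 0 and none was 2-fold apart. *Il18* was 2-fold apart in none of 6 clusters on day 6 and in none of 4 on day 10.

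Counted by cluster on day 6, 2 of 6 members read were 2-fold higher in T cell-like cells, against 1.48% of genes in either direction, 3 of 9 in cluster 5 (*Il1a*, *Il1r2* and *Il1f9*), against 2.54%, and 4 of 8 in cluster 7, against 5.55%. Without cells that carried markers of another lineage, cluster 5 had 2 of 7 (*Il1a* and *Il1r2*), against 2.58%, and *Il1f9* no longer counted. On day 10 both pairs past 2-fold were in cluster 3, where 2 of 5 members (*Il1rap* and *Il1b*) were higher, against 10.9% of its genes. *Il1b* there went from 6239 to 15280 CPM and *Il1rap* from 24.1 to 160 CPM. The young day 10 library of cluster 3 stood apart in other ways, with a median of 4059.5 UMIs per cell against 2161 to 2883 in the others and 252220 CPM of *S100a8* and *S100a9* against 144455 to 182900. Of the pathway list, 3 of 15 genes read (*Casp4*, *Nfkbia* and *Myd88*) were also 2-fold higher in middle-aged cells of cluster 3 on day 10, against the same 10.9%. On day 6 only *Sigirr*, a brake on IL-1 receptor signalling, was 2-fold apart, at 13.5 and 6.45 CPM in cluster 7. It was 1 of 25 pathway genes read in cluster 7, against 5.55% of genes there.

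**Figure D4:**
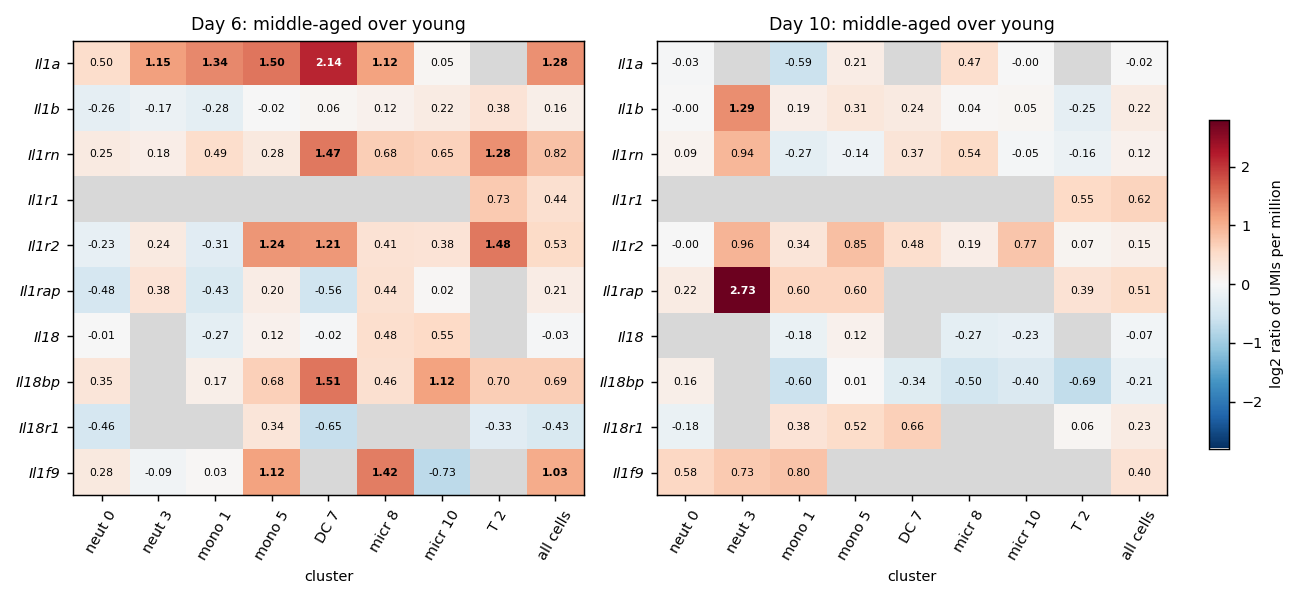
Log2 ratio between the ages (middle-aged over young CPM) for each member in 8 clusters and in all cells, on day 6 and on day 10. Grey cells had fewer than 100 UMIs in both libraries together and bold values are 2-fold or more. Day 6 shows 14 values of 1 or more in the 8 clusters, led by *Il1a*, and day 10 shows 2, both in cluster 3.

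Summed over all CD45+ cells, *Il1a* went from 177 to 430 CPM (log2 1.28 [1.25 to 1.32]) and *Il1f9* from 69.6 to 142 CPM (1.03 [0.98 to 1.08]) on day 6, and these 2 of 10 members were 2-fold apart, against 4.21% of genes. On day 10 none of 10 was, against 2.04%. Sums over all cells move with the shares of cell types. With the middle-aged values weighted by the cluster shares of the young library, the day 6 log2 ratio was 0.89 for *Il1a*, 0.27 for *Il1f9*, 0.41 for *Il1rn* and 0.01 for *Il1r2*, so that no member was 2-fold apart.

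Among T cell-like cells, thinned anew to 2000 UMIs, those with an *Il1r1* UMI held the Th17 cytokine *Il17a* more often than those without. The shares were 20.8% (5 of 24) against 2.24% on young day 6, 32.1% (9 of 28) against 7.69% on middle-aged day 6, 27.3% (24 of 88) against 6.59% on young day 10 and 28.4% (42 of 148) against 9.28% on middle-aged day 10. The exact binomial intervals did not overlap in any library. For *Ifng*, the Th1 cytokine, the shares with and without *Il1r1* were close, at 17.6% (26 of 148) against 17.6% on middle-aged day 10, and the intervals overlapped in 4 of 4 libraries. For *Csf2*, which encodes GM-CSF, the shares were 12.5%, 10.7%, 26.1% and 11.5% with *Il1r1* against 2.24%, 8.25%, 13.1% and 9.69% without, higher in 4 of 4 libraries with intervals apart only on young day 10.

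Cells with *Il18r1* held *Ifng* more often, at 15.4%, 27.0%, 25.2% and 21.4%, against 11.9%, 17.6%, 20.0% and 16.0% of cells without. The direction was the same in 4 of 4 libraries, and the intervals were apart only on middle-aged day 6 (21.9% to 32.6% against 15.1% to 20.4%) and on middle-aged day 10 (18.4% to 24.6% against 14.2% to 17.8%). As deposited the *Ifng* shares were 26.2%, 35.3%, 42.2% and 35.9% against 14.1%, 18.8%, 20.8% and 17.3%, with intervals apart in every library. *Il17a* shares with and without *Il18r1* had overlapping intervals in every thinned library. As deposited they were 17.9% against 9.68% on middle-aged day 10, with intervals apart only there. Thinned *Csf2* shares were 1.89%, 8.99%, 15.7% and 12.6% with *Il18r1* against 2.61%, 8.08%, 12.9% and 8.61% without, with intervals apart only on middle-aged day 10. As deposited the *Csf2* intervals were apart in all libraries but young day 6. *Il1r2*, read in the same way after the data were seen, was found with *Il17a* in 11.8%, 18.8%, 17.7% and 22.6% of the cells that held the decoy and in 2.34%, 7.60%, 6.63% and 9.31% of those that did not, with intervals apart in all libraries but young day 6. Cells with the decoy were also higher for *Ifng*, at 17.6%, 37.7%, 30.4% and 21.6% against 12.7%, 18.8%, 20.6% and 17.2%, with intervals apart on middle-aged day 6 and young day 10, and for *Csf2*, at 5.88%, 18.8%, 24.7% and 23.1% against 2.34%, 7.60%, 12.7% and 8.52%, with intervals apart in all but young day 6. *Foxp3*, which marks regulatory T cells, was found in 0 of 24, 0 of 28, 0 of 88 and 0 of 148 thinned cells with *Il1r1*, where up to 14.2%, 12.3%, 4.11% and 2.46% would be possible. Without *Il1r1* its thinned share was 2.16%, 1.03%, 1.40% and 2.04%, inside those limits. At the depth as deposited *Foxp3* was found in 0 of 55, 0 of 93, 1 of 235 and 3 of 360 cells with *Il1r1*. Its as-deposited share without *Il1r1* was 2.96%, 1.82%, 2.78% and 4.04%. The as-deposited intervals were apart only on middle-aged day 10, at 0.172% to 2.42% with against 3.24% to 4.97% without. Cells of a library are not replicates, so these shares compare cells within libraries and not mice.

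The genes whose levels most resembled each member over 52 sums of a cluster in a library (50 cells or more, Pearson r of log2(CPM + 10), 5886 genes compared) were named by a fixed rule. They were *Ptgs2*, *Tnfaip2* and *Tnfrsf1a* for *Il1b* (r from 0.976 to 0.956), *Ptafr*, *Upp1* and *Oasl2* for *Il1rn* (0.970 to 0.952), and *Sh2b2*, *Slc31a1* and *Fcgr4* for *Il1a* (0.906 to 0.895). *Il1r2* was most like *Il1f9*, the neutrophil receptor gene *Cxcr2* and *Rab11fip1* (0.935 to 0.928). For *Il1rap* they were *Cass4*, *Rnd1* and *F3* (0.964 to 0.944), for *Il18* *Fcgr1*, *Lgals9* and *Zeb2os* (0.906 to 0.902), for *Il18bp* *Atp6v0c*, *Ftl1* and *Bcl2a1a* (0.936 to 0.916), and for *Il18r1* the lymphocyte genes *Cd96*, *Sytl2* and *Ctsw* (0.947 to 0.946). The sums share libraries and cell types, so r describes the cell types that hold a gene and no p is given.

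The bulk counts compared 1 young with 1 middle-aged library of naive microglia. The young library held 79373420 counts and the middle-aged library 76293436. Of 10 members, 8 had 100 or more counts in both together, 6 of these were higher in the middle-aged library, and their median log2 ratio was 0.57 against -0.01 over all 14821 genes read. Past 2-fold were *Il1b* and *Il1rn*, 2 of 8, against 1.16% of genes 2-fold higher, and none was 2-fold lower, against 6.92%.

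*Il1a* was the most abundant member per length, at 60.5 counts per 1000000 and kb of exon in the young and 117 in the middle-aged library, from 9476 and 17588 counts (log2 0.95 [0.91 to 0.99]). *Il18* followed in the young library, at 12.6 and 12.6 (1032 and 989 counts, log2 -0.0043 [-0.13 to 0.12]), together with *Il1b* at 12.1 and 30.6 (1830 and 4447 counts, 1.34 [1.26 to 1.42]). The remaining members were at 1.66 in this unit or less. *Il1a* stood above *Il1b* per length in both libraries.

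*Il1rn* had 49 and 145 counts (1.62 [1.15 to 2.12]), *Il18bp* 269 and 384 (0.57 [0.34 to 0.80]) and *Il1r2* 66 and 94 (0.57 [0.098 to 1.04]). *Il1r1* was the only member of the 8 whose interval lay below 0, with 818 and 504 counts (-0.64 [-0.80 to -0.48]), and *Il1rap* had 1104 and 1170 (0.14 [0.021 to 0.26]). *Il18r1*, with 39 and 16 counts, and *Il1f9*, with 6 and 0, did not reach the minimum, and 0 counts still allow 3.

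Markers of other cells differed between the same libraries. All 9 endothelial markers passed the minimum, 8 of them were 2-fold lower in the middle-aged library, their median log2 ratio was -2.18 and their summed level went from 468 to 137 CPM. The 6 markers of border macrophages had a median of -1.10, with a summed level of 222 and 105 CPM. Endothelial cells are a known site of *Il1r1*, and the part of these cells in its lower count was not tested. Neutrophil markers summed to 711 and 844 CPM, of which *Csf3r*, also expressed by microglia, held 462 and 560. The 8 T cell markers summed to 47.3 and 31.3 CPM, of which *Il7r* held 43.4 and 29.4 and *Cd4* 3.52 and 1.39. *Cd3d* had 12 and 36 counts, *Trac* 14 and 6 and *Trbc2* 0 and 2, while *Cd3e*, *Cd3g* and *Trbc1* had 0 in both. The 10 microglia markers summed to 32703 and 30529 CPM. Fewer cells of a type and less RNA per cell cannot be told apart in such samples.

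Of the 39 pathway genes, 32 reached the minimum in bulk. None was 2-fold higher, against 1.16% of genes, and 1 was 2-fold lower, against 6.92%. That gene was *Sigirr*, with 245 and 59 counts (log2 -2.00 [-2.43 to -1.58]). The part of the other cells named above in its lower count was not tested. *Il1rl2*, the IL-36 receptor, had 6142 and 5331 counts, or 11.4 and 10.3 CPM per kb, more per length than any receptor among the members. *Il33* had 18 and 16 counts, and 4 other ligand genes of the family had 0 in both libraries.

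**Figure D5:**
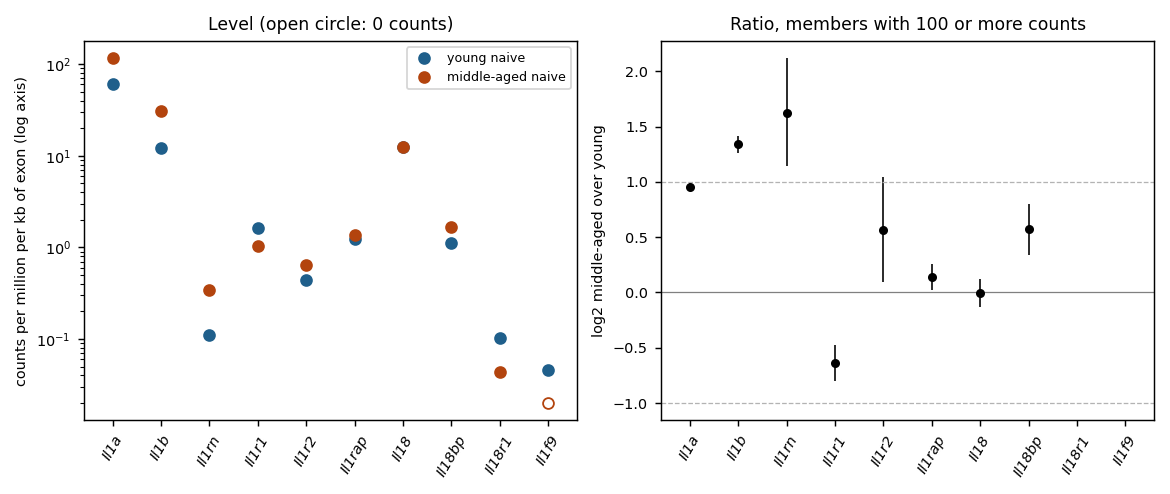
Bulk naive microglia: CPM per kb of exon for each member (log axis, open circle for 0 counts) in the young and middle-aged library, and the log2 ratio between the ages (middle-aged over young) with 95% counting intervals for the 8 members with 100 or more counts. *Il1a* is the highest member at 60.5 and 117, and *Il1b* and *Il1rn* lie above the dashed line of 2-fold, with log2 ratios of 1.34 and 1.62.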

How the data were processed

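Single cells were sorted by the authors as CD45+ spinal cord cells, run on 10x Genomics chemistry version 3 and counted with Cell Ranger 3.1.0 on mm10 (submitters' processing notes). They required at least 200 genes in a cell, a mitochondrial share under 10%, a ribosomal share under 50% and at least 3 cells for a gene, integrated the libraries and clustered them in Seurat. The deposited table holds raw UMI counts per gene and cell, and the deposited cell annotation gives the cluster numbers. The deposited bulk table holds raw read counts per gene, made by the authors with HISAT2 and featureCounts on GRCm38.p6 without strand, so reads of antisense neighbours cannot be told apart.

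UMIs were summed by cluster and library and divided by their total (CPM). Log2 ratios carry exact conditional binomial intervals, and shares of cells exact binomial intervals. A pair counted as different at 2-fold with 100 or more UMIs, and percentages beside such counts are the share of all genes past the same limits. Cells were thinned to 2000 UMIs where shares were compared, which leaves out shallower cells. No doublet caller was run, and cells with markers of another lineage were left out as an alternative. Monocyte/macrophage-like, dendritic-like and microglia-like clusters counted as the same lineage there, so mixtures among them stayed in. Markers common within a lineage's own cells were not used, which left 7 of 12 neutrophil markers for these clusters. Clusters were named from fixed marker lists. All members are named, as are up to 3 other pathway genes 2-fold apart in a comparison, the largest first, and the 3 genes most like each member. Bulk levels were also divided by exon length (GENCODE), and promoters for 10 of 10 members came from RefSeq (GRCm38.p6). Columns of other series numbered 0. Alternatives were TMM scaling, other totals, depths, minimums and folds, left-out cells, and, chosen after seeing the data, leaving out shared barcodes and reading *Il1r2* and *Foxp3* in co-detection. The members and lists were chosen with earlier results of these data known. Python 3.11.15, numpy 2.4.6, scipy 1.17.1, pandas 2.3.3, matplotlib 3.10.9, R 4.3.3 and edgeR 4.0.16 (TMM factors only) were used, and the counting steps were tested on simulated data.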

Additional observations from a re-analysis of the deposited data

Results flagged for a closer look

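Some members went in opposite directions on the 2 days or in the 2 ages, and none of these differences was tested, since each side rests on 1 library per group. *Il1a* in monocyte/macrophage-like cluster 1 was higher in middle-aged mice on day 6 (log2 1.34) and lower on day 10 (-0.59). *Il1b* in neutrophil-like cluster 3 had a log2 ratio of middle-aged over young of -0.17 on day 6 and 1.29 on day 10, where the young library stood apart in depth. *Il18bp* in microglia-like cluster 10 was higher in middle-aged mice on day 6 (1.12) and lower on day 10 (-0.40). Between days, *Il18bp* in cluster 10 was higher on day 10 in young mice (1.23) and lower in middle-aged mice (-0.28), and in dendritic-like cluster 7 it was higher in young (0.72) and lower in middle-aged mice (-1.13). The age and day comparisons of a cluster share libraries.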

How the results depend on the processing

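The 100 values past 2-fold in the age and day comparisons were recomputed under other settings. Each pairs a member with 1 of the 8 clusters or with the sum over all cells. TMM scaling left 97 of them past 2-fold in the same direction, a total without mitochondrial and ribosomal genes 96, keeping cells of 2000 or more UMIs 99, leaving out shared barcodes 99, leaving out the 10 cells with most UMIs of the member 88, and leaving out cells with markers of another lineage 80. Without the 10 top cells, *Il18* and *Il1rap* in cluster 7 of young and *Il1a* in cluster 3 of middle-aged mice had no UMI left on day 10 and gave no ratio between days. The cause was not tested for any pair lost. *Il1r2* in microglia-like cluster 8 turned, from a log2 ratio of day 10 over day 6 of -1.08 in young mice to 1.70 without the 10 cells with most UMIs and 0.95 without cells that held markers of another lineage.

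On day 10, the 2 pairs higher in middle-aged mice became 11 at 1.5-fold, 5 at a minimum of 30 UMIs and 1 without the 10 top cells, and the 0 lower pairs became 3 at 1.5-fold and 2 at 30 UMIs. On day 6, the 14 higher pairs became 1 on the scale of log2 mean of 10000-scaled values plus 1, which compresses low levels, and the 0 lower pairs became 2 at 1.5-fold. The 2 pairs higher on day 10 in middle-aged mice became 0 without cells of mixed lineage and 5 at 30 UMIs. Over all cells on day 6, the 2 higher members became 1 at 2000 or more UMIs, 1 without mitochondrial and ribosomal genes in the total and 0 at the cluster shares of the young library. In bulk, the 0 members 2-fold lower became 2 with no minimum. The other counts over the 8 clusters together stayed within 1.5 times of their reported value. Within cluster 0, TMM scaling took the members lower on day 10 from 4 to 8 in young and from 4 to 7 in middle-aged mice. In T cell-like cells of young mice, *Il1rn*, the 1 member lower on day 10, was no longer 2-fold lower or no longer reached the minimum with TMM scaling, without the 10 top cells and without cells of mixed lineage.

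With no minimum, 27.3% of gene and cluster pairs on day 6 and 24.0% on day 10 were 2-fold apart between ages, against 3.12% and 1.25%, so 2-fold differences of low counts say little. *Il1r1* reached 100 UMIs between ages in 1 of the 8 clusters compared. No paired analysis was possible because each age and day is 1 library. Age and day cannot be told apart from the pool of 4 cords that made each library.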

Other observations

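Some smaller clusters held family transcripts beside genes of other lineages. Cluster 14 was led by the B cell genes *Cd79a*, *Ebf1* and *Ms4a1*, yet it held *Il1b* at 7826, 5204, 3796 and 6760 CPM and *Il1r2* at 910, 634, 486 and 808 CPM, in 17, 19, 90 and 28 cells (order as above). Both lay above every library of B cell-like cluster 4, and no doublet caller was run on these cells. Cluster 11 was led by *Prss34*, *Ctsg*, *Prg2* and *Elane*, granule genes of basophil, eosinophil and neutrophil precursors, together with genes of dividing cells. It held *Il18r1* at 32.4, 77.0, 85.6 and 103 CPM beside *Il1b* at 443, 376, 226 and 131 CPM.

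Neutrophil-like cluster 6, led by the granule genes *Ltf*, *Ngp* and *Camp*, had *Il1b* at 4873, 4011, 1602 and 3391 CPM, below every library of cluster 0. It held 60, 43, 515 and 83 cells.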
